A study of Mus musculus with 31 samples.

Results

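Transcripts of 37 genes that neurons use for synaptic transmission and for their own cell structure were followed through every library of a mouse RNA sequencing study, as the neuronal signal of cortex and as the level of the same RNA in microglia isolated with the surface protein CD11b. The 37 genes were taken by symbol from a list of gene names, and each was found once among the 55401 genes that were counted. They comprise 8 genes of the synaptic vesicle and its fusion machinery, 7 of the cytoskeleton and growth cone, 3 of neuronal nuclei and RNA binding, 4 that define the transmitter a neuron uses, 5 of the postsynaptic scaffold, 7 receptors of neurotransmitters and 3 surface or secreted proteins. A second list of 91 neuronal genes with no gene in common with it was followed for comparison.

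The study asked how the P522R variant of the phospholipase PLCγ2, an enzyme of microglial receptor signalling, acts in mice with and without brain amyloid. All mice were 13 months old and on the C57BL/6J background. A+ mice carried the APPswe/PS1dE9 transgenes (APP/PS1), a chimeric mouse and human amyloid precursor protein and a human presenilin 1, both driven by the promoter of the mouse prion protein gene, and A- mice carried neither. Pki/ki mice were homozygous for the variant, which had been knocked in (KI) by CRISPR/Cas9, and Pwt/wt mice had the wild-type gene.

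Among the cortex libraries, 4 were from female A+/Pwt/wt, 4 from female A+/Pki/ki and 1 from a female A-/Pwt/wt mouse, and all were made from temporo-occipital cortex. The 22 libraries of CD11b+ cells came from whole brains that were digested with enzymes and passed over magnetic beads. They included 7 of female A-/Pwt/wt, 4 of female A+/Pwt/wt, 4 of female A+/Pki/ki, 3 of male A-/Pwt/wt and 4 of male A-/Pki/ki mice. Each library is named by the number of its mouse, and each was treated as 1 animal.

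Neurons communicate at synapses, where the SNARE proteins Snap25, Vamp2 and Stx1a fuse transmitter-filled vesicles with the membrane and receptors on the facing cell respond. Glutamate, the main excitatory transmitter of the cortex, is loaded into vesicles by the transporter Slc17a7, whereas GABA, the main inhibitory one, is made by Gad1 and Gad2 and loaded by Slc32a1. Microglia do not form such synapses themselves, and many of the genes are kept silent outside neurons by the repressor REST, which binds a DNA element known as RE1. Basp1, a growth cone protein of the list, is known to be expressed outside neurons as well.

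To look for that element, the start sites of the genes were searched for the letters TTCAGCACC, a stretch of the RE1 element, on both strands. RefSeq promoters of GRCm38.p6, each reaching from 250 bases before to 50 bases after a start, were found for 26 of the 37 genes, with 38 promoters in all. The letters occurred in 1 of the 38, that of Syn1, and in 122 of 32851 promoters of all genes (0.371%). Syn1 codes for synapsin 1, which tethers vesicles within the nerve terminal. The 250 bases before its RefSeq start (chrX:20920919-20921168, minus strand) are shown because they hold the only match, in capitals. This match begins at base 19 from the 5′ end:
Syn1 promoter: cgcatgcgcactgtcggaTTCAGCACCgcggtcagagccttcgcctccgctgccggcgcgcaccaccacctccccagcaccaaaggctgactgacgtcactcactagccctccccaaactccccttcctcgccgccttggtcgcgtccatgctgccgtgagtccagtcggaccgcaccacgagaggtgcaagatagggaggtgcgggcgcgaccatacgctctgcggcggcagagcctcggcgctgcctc
A window without these letters says nothing on whether the repressor binds there.

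Several of the genes overlap a gene on the opposite strand, and the counting did not use strand, so reads of such partners cannot be told apart. The neurofilament genes Nefl and Nefm, on chromosome 14 of GRCm38 at 68083863-68089095 and 68082590-68124846, share 1108 exonic bases (32.8% of the exon length of Nefl and 19.2% of that of Nefm). The antisense gene Gm14205 covers 24.9% of the exon length of Slc32a1, Gm14703 covers 16.8% of Syp and Grin1os covers 13.5% of Grin1. In the Gencode gene models used here, Syn1 spans 20860511-20921004 on chromosome X, Snap25 136713453-136782428 on chromosome 2, Slc17a7 45163949-45176142 on chromosome 7 and Basp1 25363277-25413764 on chromosome 15. The start of Syn1 in these models thus lies within the stretch shown above, which was placed by the RefSeq start.

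The cortex libraries held 25226544 to 43129427 counts and the CD11b+ libraries 16229831 to 25118180 counts. The mean log2 CPM (CPM, counts relative to the TMM-scaled library total) over 10 microglial markers was 9.58 or more in each CD11b+ library. In cortex this mean was 4.81 to 5.91. P2ry12 and Tmem119 were among these markers, and none of the 10 was at 0. The share of counts from mitochondrial genes was 4.02% to 5.58% in cortex and 3.45% to 24.5% in CD11b+ libraries. The CD11b+ library of mouse 245 stood apart in its low counts: 18259 genes had a count and 1284 had 1 to 9 counts, whereas the other CD11b+ libraries had 22828 to 24795 and 6814 to 8185. Mouse number 236 occurs both as a CD11b+ A-/Pwt/wt and as a cortex A+/Pwt/wt library, and the labels do not explain it. Cortex, female CD11b+ and male CD11b+ libraries were scaled as separate tables, so levels set side by side across them are approximate.

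The neuronal score of a library was calculated as the mean log2 CPM of the 37 transcripts. In cortex, the score was 8.64 ± 0.04 (SD, n = 4) in A+/Pwt/wt and 8.63 ± 0.04 (SD, n = 4) in A+/Pki/ki mice, and 8.73 in the single A-/Pwt/wt mouse. In female CD11b+ libraries, it was 4.58 ± 1.07 (SD, n = 7) in A-/Pwt/wt, 4.80 ± 0.41 (SD, n = 4) in A+/Pwt/wt and 3.59 ± 1.32 (SD, n = 4) in A+/Pki/ki mice. In male CD11b+ libraries, it was 3.00 ± 0.18 (SD, n = 3) in A-/Pwt/wt and 4.72 ± 0.46 (SD, n = 4) in A-/Pki/ki mice. The cortex scores thus ranged over 0.10 log2 units in A+/Pwt/wt and 0.08 in A+/Pki/ki mice, whereas those of female CD11b+ libraries ranged over 3.06 log2 units in A-/Pwt/wt and 2.90 in A+/Pki/ki mice.

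**Figure D1:**
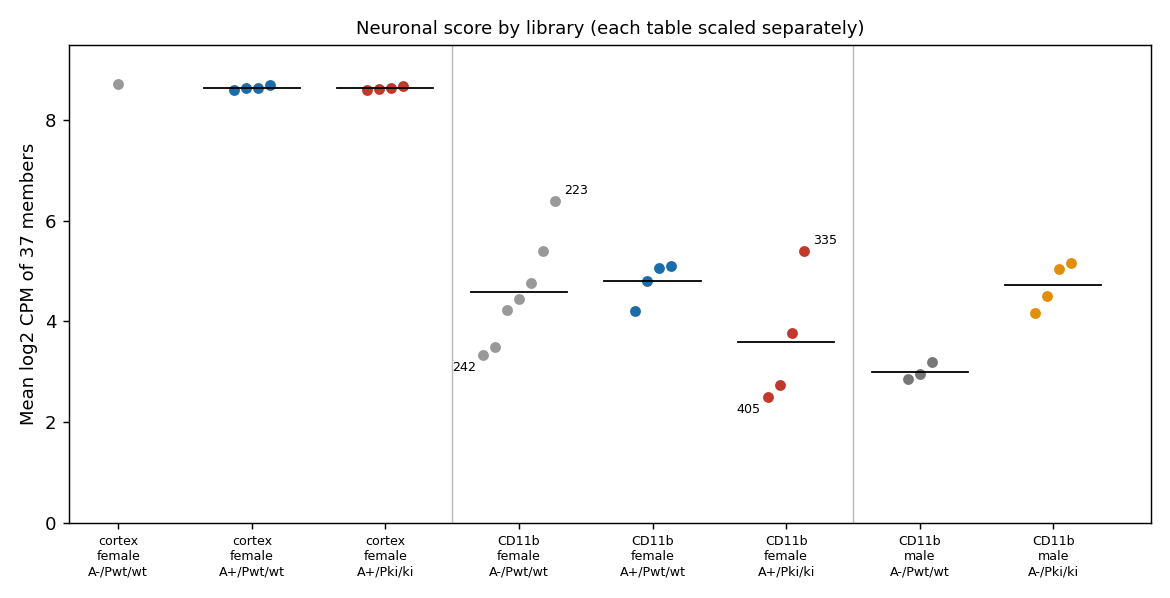
Neuronal score of each library (y axis, mean log2 CPM of the 37 transcripts) by group (x axis). Points are single mice and black lines group means. Cortex libraries lie between 8.59 and 8.73 and CD11b+ libraries between 2.49 and 6.39. The highest and lowest mice of the 2 groups with the widest spread are numbered.

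As a share of all counts, the 37 transcripts made up 2.11% to 2.28% of cortex libraries. In CD11b+ libraries, they made up 0.125% to 0.525% in female A-/Pwt/wt, 0.173% to 0.283% in female A+/Pwt/wt and 0.0839% to 0.311% in female A+/Pki/ki mice. The share was 0.105% to 0.117% in male A-/Pwt/wt and 0.172% to 0.269% in male A-/Pki/ki mice, and these 2 male groups did not overlap. In such bulk samples, fewer neurons or neuronal fragments and less RNA in each cannot be told apart.

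In cortex, per kilobase of exon, the most abundant transcript of A+/Pwt/wt mice was Nrgn, which codes for the calmodulin-binding protein neurogranin of dendritic spines, at 1301 CPM per kilobase. Snap25 followed at 385 CPM per kilobase and Vamp2 at 321. Olfm1, a secreted olfactomedin, was at 297, Basp1 at 295 and Slc17a7 at 258 CPM per kilobase. The lowest levels were those of the NMDA receptor subunit Grin2a (7.73 CPM per kilobase), the RNA-binding protein Celf6 (7.98), the GABA-A receptor subunit Gabrb2 (12.1) and the NMDA receptor subunit Grin2b (13.2). The length used is that of all annotated exons of a gene together, and these levels and their order depend on that choice. For Snap25 it is 6791 bases, against 2116 in its longest coding transcript, whereas for Nrgn both are 1453.

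The effect of the KI on these transcripts in APP/PS1 cortex was examined next. None of the 37 was called at an adjusted p (edgeR quasi-likelihood test, Benjamini-Hochberg, FDR 0.05), and neither was any of the 18640 genes tested (0%), of which 514 had an unadjusted p below 0.05. The median log2 fold change (log2FC) of the 37 was -0.01, with 15 above and 22 below 0, and that of all genes was -0.00. The CPM of the 4 A+/Pki/ki and the 4 A+/Pwt/wt mice overlapped for all 37 transcripts, while 1.87% of all genes had no overlap.

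Among the vesicle genes, Snap25 had 2553, 2627, 2848 and 2423 CPM in A+/Pwt/wt and 2802, 2711, 2392 and 2529 CPM in A+/Pki/ki mice. The ranges are nearly the same, and the log2FC was -0.01 (SE 0.08, adjusted p = 1.00). Map2, which stabilizes microtubules in dendrites, had 924, 1063, 986 and 1212 CPM in A+/Pwt/wt and 1039, 1113, 1282 and 1048 CPM in A+/Pki/ki mice. The groups overlapped, with a log2FC of 0.09 (SE 0.10). Celf4, an RNA-binding protein of neurons, had 572 to 683 CPM in A+/Pwt/wt and 614 to 683 CPM in A+/Pki/ki mice, and Gria2, a subunit of AMPA-type glutamate receptors, had 402 to 508 and 419 to 462 CPM. Olfm1 had 971, 1169, 1149 and 928 CPM in A+/Pwt/wt and 1095, 1145, 1226 and 1116 CPM in A+/Pki/ki mice, which overlapped (log2FC 0.11, SE 0.09).

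The transcripts with the highest and the lowest log2FC in cortex were Gria1, another AMPA receptor subunit, and Homer1, a scaffold protein with an activity-induced short form. Gria1 had 328, 322, 361 and 396 CPM in A+/Pwt/wt and 396, 369, 425 and 368 CPM in A+/Pki/ki mice (log2FC 0.14, SE 0.08). Homer1 had 176, 211, 242 and 249.7 CPM in A+/Pwt/wt and 178, 203, 186 and 153 CPM in A+/Pki/ki mice (log2FC -0.29, SE 0.11, unadjusted p = 0.0228, adjusted p = 1.00 in edgeR). A single A+/Pwt/wt mouse, 236, lay within the A+/Pki/ki range of Homer1, and the other 3 lay above it. The heavy neurofilament Nefh was the other transcript with an unadjusted p below 0.05 in this edgeR comparison (log2FC -0.19, SE 0.08, unadjusted p = 0.0328 and adjusted p = 1.00 in edgeR).

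Within a cortex group, the excitatory and inhibitory identity genes went in opposite directions between mice, a pattern that was chosen after the values were seen. Slc17a7 had 1238, 1655, 1459 and 1207 CPM in mice 236, 257, 259 and 329 (A+/Pwt/wt). In the same order, Gad1 had 409, 302, 354 and 415 CPM, Gad2 had 258, 169, 209 and 308 CPM and Slc32a1 had 179, 98.2, 129 and 147 CPM. Mouse 257 was thus the highest for the glutamate transporter and the lowest for all 3 GABA genes. In A+/Pki/ki mice 184, 203, 216 and 222, Slc17a7 had 1249, 1449, 1552 and 1278 CPM, whereas Gad1 had 426, 323, 348 and 401, Gad2 had 268, 195, 219 and 280 and Slc32a1 had 157, 106, 122 and 153 CPM. The 2 mice with the higher Slc17a7 were again the 2 with the lower values of each GABA gene. The summed level of 6 striatal markers, none of them at 0, varied in the same libraries, with 859, 273, 557 and 763 CPM in mice 236, 257, 259 and 329, and 784, 394, 475 and 767 CPM in mice 184, 203, 216 and 222. Mice 257 and 203, the lowest of their groups for all 3 GABA genes, were also the lowest for these markers of neighbouring tissue, and their part in the pattern was not tested. The KI and Pwt/wt groups overlapped for Slc17a7 and the 3 GABA genes, with log2FC from -0.05 (Slc32a1) to 0.02 (Gad2).

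To set the level after isolation against that of tissue, CD11b+ libraries of A+/Pwt/wt mice were compared with cortex of A+/Pwt/wt mice. Different animals, another dissection and another RNA extraction separate the 2 sets, which cannot be told apart from the isolation. All 37 transcripts were lower in CD11b+ libraries (edgeR, FDR 0.05), against 7447 of 18541 genes tested (40.2%). Their median level was 8.36% of cortex, with 3.96% and 18.0% at the quartiles. These percentages come from a fit that scaled both sets together. They are higher than the ratios of the CPM given below, which were scaled within each set. For Shank3, such CPM were 15.1 per kilobase of exon in CD11b+ libraries and 28.9 in cortex. Microglial markers lay the other way, with 10 of 10 higher and a median log2FC of 4.78.

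The level relative to cortex differed between transcripts by more than the spread between mice. Shank3, a scaffold protein of excitatory synapses, had 281, 276, 223 and 283 CPM in cortex and 157, 84.4, 166 and 146 CPM in CD11b+ libraries, which is 64.8% of cortex in the joint fit (log2FC -0.63, SE 0.19, adjusted p = 0.012 in edgeR). Basp1, which is also expressed outside neurons, was at 61.6% of cortex, with 582, 620, 684 and 485 CPM in cortex and 265, 314, 299 and 298 CPM in CD11b+ libraries. Shank1, a related scaffold protein, was at 50.8%, with 428, 588, 412 and 433 CPM in cortex and 199.5, 98.1, 253 and 209 CPM in CD11b+ libraries. For all 3, the CD11b+ libraries lay below the cortex libraries without overlap. Whether RNA in CD11b+ libraries came from neurons or from other cells was not tested.

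At the other end were receptors and a vesicle protein. Grin2a had 129.6, 149, 134 and 142 CPM in cortex and 1.86, 0.806, 2.87 and 1.79 CPM in CD11b+ libraries, 1.61% of cortex (log2FC -5.96, SE 0.27, adjusted p = 1.04e-08 in edgeR). Grin2b had 253, 326, 325 and 403 CPM in cortex and 4.92, 3.22, 6.24 and 4.22 CPM in CD11b+ libraries, 1.76% of cortex. Syt1, the calcium sensor of vesicle release, had 1219, 1511, 1389 and 1358 CPM in cortex and 32.3, 20.7, 37.8 and 32.6 CPM in CD11b+ libraries, 2.80% of cortex. Thus, Grin2a and Shank3, both of excitatory synapses, differed in their level relative to cortex, with a log2FC of -5.96 against -0.63.

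The most abundant transcript of each role lay between these ends. Snap25 was at 6.84% of cortex, with 201, 92.4, 148 and 135 CPM in CD11b+ libraries. Slc17a7 was at 6.84% with 102, 44.2, 76.5 and 84.0 CPM, Nrgn at 11.1% with 266, 127, 102 and 184 CPM and Gria2 at 3.53% with 15.4, 11.0, 15.1 and 8.39 CPM. Olfm1 was at 21.8%, Map2 at 25.1% and Celf4 at 25.3% of cortex. By role, the median log2FC was -2.00 for the postsynaptic scaffold, -2.58 for the cytoskeleton, -3.39 for nuclear and RNA-binding proteins, -3.91 for vesicle genes, -4.14 for surface and secreted proteins, -4.71 for transmitter identity and -4.82 for receptors. Both ends contained synaptic genes, and 4 of the 5 scaffold genes were above 10% of cortex, Homer1 being at 9.60%.

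**Figure D2:**
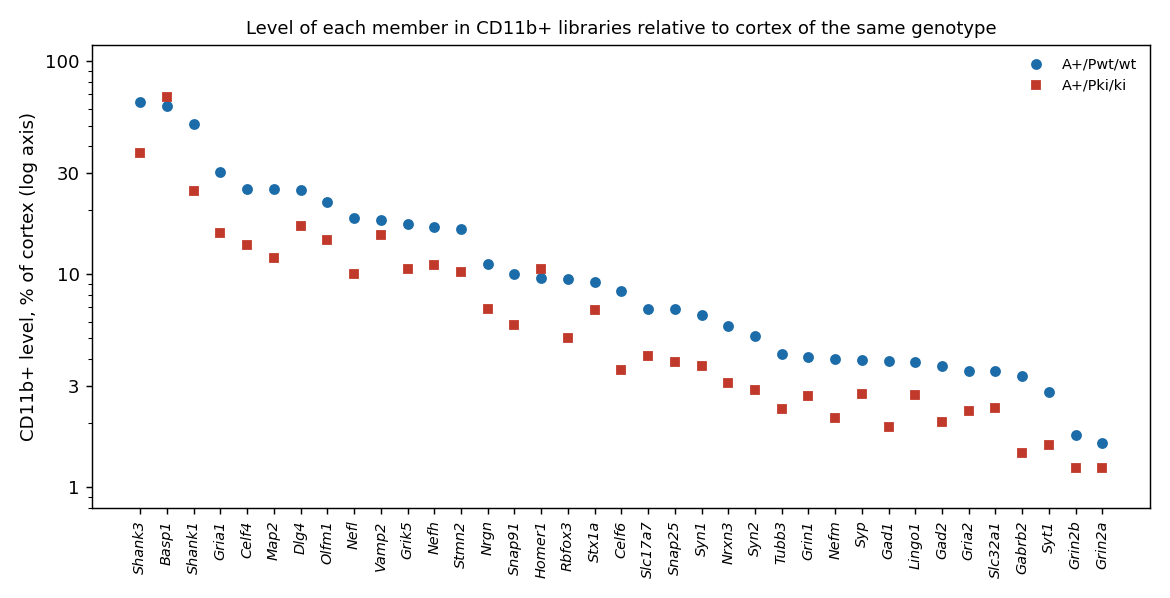
Level of each of the 37 transcripts in CD11b+ libraries as a percentage of the cortex level of the same genotype (y axis, log axis), ordered by the A+/Pwt/wt value (x axis). Blue circles are A+/Pwt/wt and red squares A+/Pki/ki mice, each from a joint fit of 4 CD11b+ and 4 cortex libraries. The order runs from Shank3 (64.8% in A+/Pwt/wt) to Grin2a (1.61%).

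In A+/Pki/ki mice, whose libraries are all separate from those of A+/Pwt/wt mice, the median level was 4.13% of cortex, with a range of 1.23% to 68.4%. Across the 37 genes, which are not independent replicates and share their libraries within each genotype, the log2FC of the 2 genotypes had r = 0.98 (Spearman's rho = 0.97). The level relative to cortex had little relation to the exon length of a gene (r = -0.19 with log2 length, rho = -0.14, 37 genes) and a weak one to its GC content (r = 0.27, rho = 0.30).

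The 7 CD11b+ libraries of female A-/Pwt/wt mice share genotype, sex and batch tag, and their neuronal scores had the widest range of the CD11b+ groups. The score was 3.33 in mouse 242, 3.49 in 245, 4.23 in 243, 4.44 in 225, 4.77 in 224, 5.39 in 236 and 6.39 in 223. The mitochondrial share followed the same order, with 5.10%, 5.77%, 6.95%, 9.93%, 11.7%, 16.0% and 24.5%. In mice 242, 245, 243, 225, 224, 236 and 223, in this order, the summed level of 15 astrocyte markers was 2676, 3099.7, 3744, 4747, 4760.4, 6568 and 7264 CPM. That of 12 oligodendrocyte markers was 20561 CPM in mouse 245, 21507 CPM in mouse 242 and 72873 CPM in mouse 223. That of 10 microglial markers was 19606 CPM in mouse 242 and lowest, at 10797 CPM, in mouse 223. The astrocyte and oligodendrocyte sums were thus also highest in mouse 223 and the microglial sum was lowest there, none of these markers was at 0, and their part in the spread, and that of the mitochondrial share, was not tested. Mouse 223 had the highest CPM for 36 of the 37 transcripts, all but Basp1, and mouse 242 the lowest for 29.

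Between mice 223 and 242, the median fold was 9.71, from 0.94 for Basp1 to 17.2 for Grin2b. Snap25 ran from 35.3 CPM in mouse 242 over a median of 89.4 to 307 CPM in mouse 223. Slc17a7 ran from 21.5 over 52.9 to 299.7 CPM and Celf4 from 44.9 over 117 to 499 CPM, again between the same mice. Vamp2, which also serves vesicle fusion outside neurons, spanned 122 to 431 CPM, and Homer1 9.41 to 25.2 CPM, so both varied less. So did Stmn2, a gene of the cytoskeleton and growth cone, with 23.4 CPM in mouse 242 and 79.6 CPM in mouse 223. Basp1 stayed between 296 and 355 CPM, and was lowest in mouse 223.

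**Figure D3:**
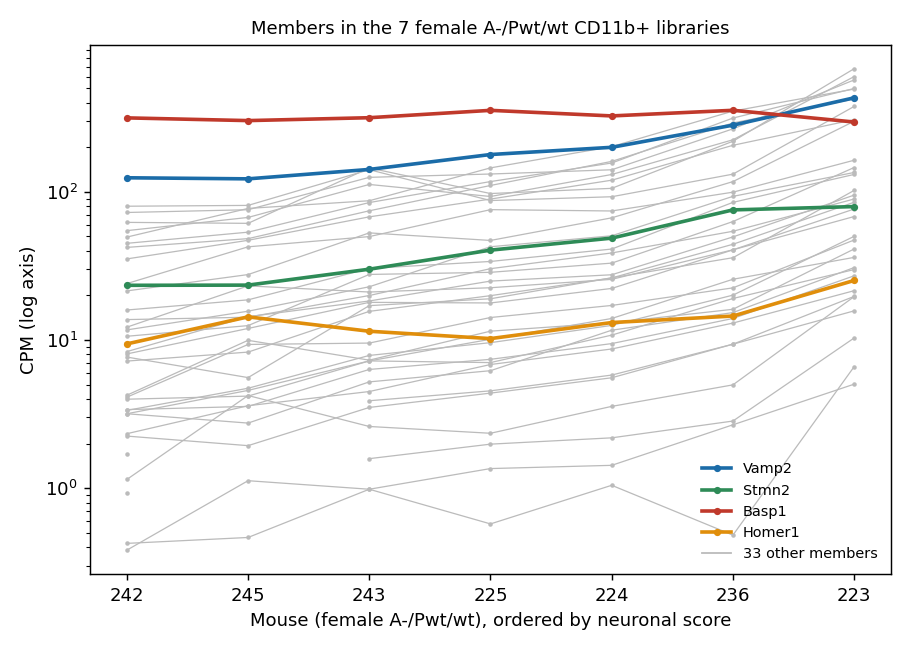
CPM (y axis, log axis) of the 37 transcripts in the 7 female A-/Pwt/wt CD11b+ libraries, ordered by neuronal score (x axis, mouse number). Each line is a transcript, and 4 are coloured. Most lines rise from mouse 242 to mouse 223, whereas Basp1 stays between 296 and 355 CPM. Slc32a1 and Grin2a are at 0 in mouse 245, which is not drawn.

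Slc32a1 and Grin2a were at 0 in mouse 245, the library that also lacks low counts, although they had 1.70 and 0.933 CPM in mouse 242. These were the only zeros among the 37 transcripts in 31 libraries, and 10 of the 91 other neuronal genes were at 0 in the same library. In the other 3 female and male groups with 4 CD11b+ libraries, the median ratio of the highest to the lowest library was 9.86 in A+/Pki/ki (from 1.10 for Homer1 to 17.9 for Gria1), 2.08 in A+/Pwt/wt and 2.15 in male A-/Pki/ki mice. In the cortex groups of 4 it was 1.17 and 1.26.

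Whether the KI itself went with a change in these transcripts was examined first in males without the transgenes. In CD11b+ cells of A-/Pki/ki males, 32 of the 37 transcripts were higher and none lower than in A-/Pwt/wt males (edgeR, FDR 0.05), against 1824 of 16373 genes called higher (11.1%). The median log2FC was 1.97, while that of all genes was -0.00. The CPM of the 4 A-/Pki/ki mice lay above those of the 3 A-/Pwt/wt mice without overlap for 34 transcripts, and this held for 17.5% of all genes. Transcripts of every role rose, with 7 of 8 vesicle genes, 6 of 7 cytoskeletal genes, 3 of 3 nuclear and RNA-binding genes, 4 of 4 transmitter identity genes, 4 of 5 scaffold genes, 5 of 7 receptors and 3 of 3 surface or secreted proteins called higher.

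Slc17a7 had 14.8, 12.1 and 19.4 CPM in A-/Pwt/wt males and 49.5, 62.8, 85.8 and 108 CPM in A-/Pki/ki males. The lowest KI library was above the highest of the others, and the log2FC was 2.29 (SE 0.29, adjusted p = 0.00374 in edgeR). Celf4 had 22.9, 24.9 and 34.5 CPM in A-/Pwt/wt and 72.0, 107, 137 and 141 CPM in A-/Pki/ki males (log2FC 2.03, SE 0.26). Olfm1 had 33.9, 33.3 and 40.7 CPM in A-/Pwt/wt and 89.2, 152, 162 and 212 CPM in A-/Pki/ki males (log2FC 2.07, SE 0.27). The groups did not overlap for either gene.

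Among synaptic receptors and scaffolds, Gria1 had 34.5, 21.1 and 26.7 CPM in A-/Pwt/wt and 72.0, 49.5, 146 and 113 CPM in A-/Pki/ki males (log2FC 1.77, SE 0.36, adjusted p = 0.0128 in edgeR). Dlg4, the main scaffold protein PSD-95 of excitatory synapses, had 57.2, 58.3 and 69.3 CPM in A-/Pwt/wt and 125, 137, 185 and 204 CPM in A-/Pki/ki males (log2FC 1.38, SE 0.20). Celf6 had the highest log2FC of the 37, 2.80 (SE 0.45), at levels of 0.285, 0.319 and 0.176 CPM in A-/Pwt/wt and 1.04, 2.18, 2.17 and 2.31 CPM in A-/Pki/ki males. Lingo1, a surface protein that restrains axon growth, followed with a log2FC of 2.77 (SE 0.42). All 4 genes had no overlap between the groups.

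The 5 transcripts that were not called included Basp1 and Homer1, which had varied least within each female CD11b+ group. Basp1 had 394, 462 and 408 CPM in A-/Pwt/wt and 374, 543, 329 and 347 CPM in A-/Pki/ki males, which overlapped (log2FC -0.12, SE 0.17, adjusted p = 0.644 in edgeR). Homer1 had a log2FC of 0.15 (SE 0.17, adjusted p = 0.55), with 12.8 to 14.1 CPM in A-/Pwt/wt and 11.6 to 17.5 CPM in A-/Pki/ki males. Vamp2 had 126, 107 and 148 CPM in A-/Pwt/wt and 136, 171, 197 and 195 CPM in A-/Pki/ki males, which also overlapped (log2FC 0.43, SE 0.17, adjusted p = 0.106). The receptors Grin2a and Gabrb2 had log2FC of 1.48 and 1.94 and adjusted p of 0.0581 and 0.0813 in the same edgeR fit, at levels of at most 3.12 CPM in each male library. Without mouse 104, which had the highest Basp1 level, Basp1 was called lower in A-/Pki/ki males (log2FC -0.29, adjusted p = 0.0386 in edgeR).

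**Figure D4:**
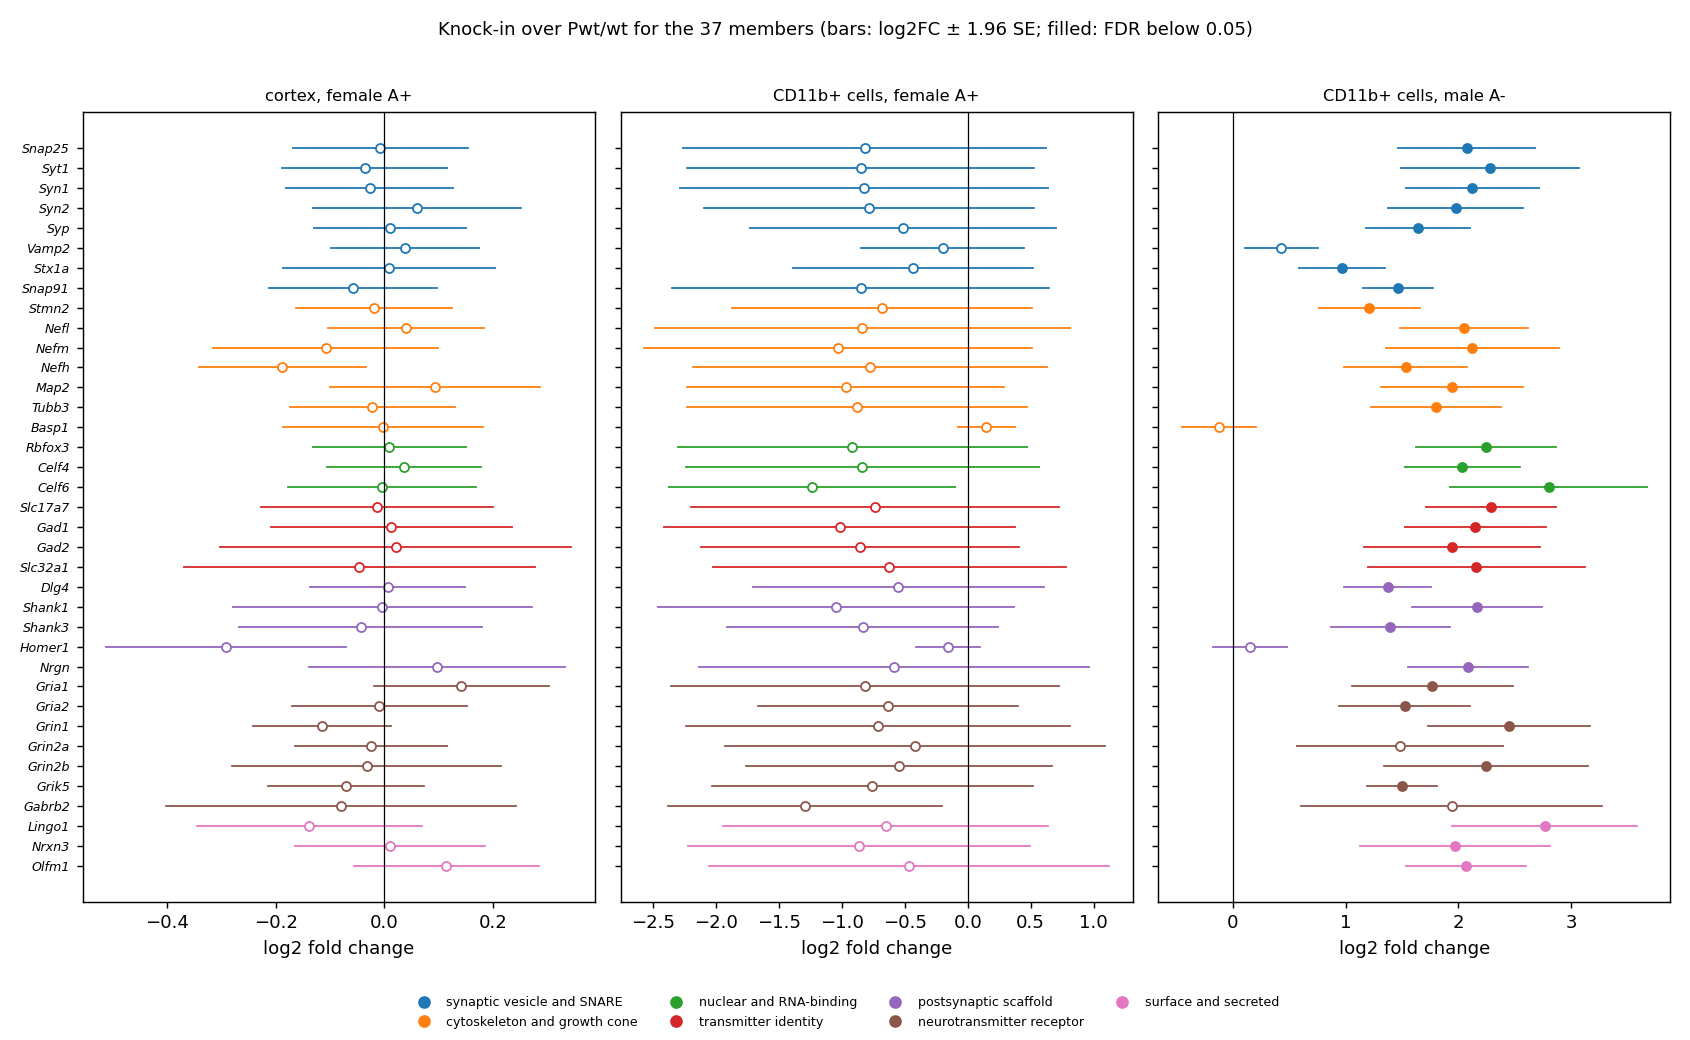
log2FC of the KI over Pwt/wt mice for the 37 transcripts in cortex of A+ females (left), CD11b+ cells of A+ females (middle) and CD11b+ cells of A- males (right). Points are log2FC, colours are roles, filled points passed FDR 0.05, and the 3 x axes have different ranges. Bars are 95% intervals from the SE under a normal approximation, which makes them too narrow for so few mice. In males 32 points are filled and in both female panels none.

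In the same males, other measures moved as well. The mitochondrial share was 3.97% to 5.02% in A-/Pwt/wt and 7.40% to 12.8% in A-/Pki/ki libraries, and the microglial markers had negative log2FC in 10 of 10 cases, with 1 called, at a median of -0.40. Their summed level was 23889 to 24512 CPM in A-/Pwt/wt and 14191 to 25064 CPM in A-/Pki/ki libraries, and none was at 0. Astrocyte markers were called higher in 14 of 15 cases, oligodendrocyte markers in 8 of 12, endothelial markers in 3 of 9 and mural markers in 2 of 7. The summed astrocyte level was 2675 to 3255 CPM in A-/Pwt/wt and 4043 to 5965 CPM in A-/Pki/ki libraries, and that of oligodendrocyte markers 18130.0 to 23309 and 27739 to 59594 CPM. The part of these in the rise of neuronal transcripts was not tested.

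The same KI comparison was made in CD11b+ cells of APP/PS1 females. Here none of the 37 transcripts was called, and none of 17039 genes (0%), of which 575 had an unadjusted p below 0.05 in edgeR. The log2FC was negative for 36 of the 37 transcripts and positive for Basp1, with a median of -0.78 against 0.00 for all genes. The direction therefore differed from that in males, but the 4 A+/Pki/ki libraries spread widely and overlapped those of A+/Pwt/wt mice for all 37, while 2.17% of all genes had no overlap.

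The spread came from the order of the 4 A+/Pki/ki mice. Their neuronal score was 2.49 in mouse 405, 2.73 in 394, 3.77 in 244 and 5.39 in 335, and their mitochondrial share was 3.45%, 3.77%, 7.54% and 19.4%. In A+/Pwt/wt mice, the score was 4.22 in mouse 367, 4.80 in 380, 5.07 in 375 and 5.10 in 331, with mitochondrial shares of 8.999%, 13.3%, 16.7% and 15.6%. Of the A+/Pki/ki libraries, 3 were thus below and 1 was above each A+/Pwt/wt library. Mouse 335 was the highest of its group for 35 of the 37 transcripts, all but Basp1 and Gabrb2.

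Slc17a7 had 102, 44.2, 76.5 and 84.0 CPM in A+/Pwt/wt and 30.3, 128, 15.5 and 9.73 CPM in A+/Pki/ki mice (244, 335, 394 and 405, in this order). Mouse 335 was above and the other 3 below the range of A+/Pwt/wt (log2FC -0.74, SE 0.75, adjusted p = 0.853 in edgeR). Celf4 had 146, 81.9, 161 and 122 CPM in A+/Pwt/wt and 51.3, 193, 26.3 and 15.0 CPM in A+/Pki/ki mice. Olfm1 had 276, 96.3, 145 and 225 CPM in A+/Pwt/wt and 79.4, 391, 41.1 and 25.5 CPM in A+/Pki/ki mice. Dlg4 had 237, 115, 199.8 and 185 CPM in A+/Pwt/wt and 83.3, 312, 59.1 and 47.1 CPM in A+/Pki/ki mice. In A+/Pki/ki mice, all 3 had the order of Slc17a7, with mouse 335 highest and mouse 405 lowest.

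The remaining transcripts singled out here differed from that order in part. Gria1 had 147, 49.5, 92.0 and 55.4 CPM in A+/Pwt/wt and 64.1, 109, 6.10 and 16.3 CPM in A+/Pki/ki mice, so that 244 and 335 lay within the A+/Pwt/wt range. Gabrb2 had the lowest log2FC (-1.30, SE 0.56, unadjusted p = 0.0465, adjusted p = 0.853 in edgeR), with 1.21, 1.53, 2.92 and 2.72 CPM in A+/Pwt/wt and 1.52, 1.14, 0.244 and 0.501 CPM in A+/Pki/ki mice. Vamp2 had 143 to 220.2 CPM in A+/Pwt/wt and 92.5 to 275 CPM in A+/Pki/ki mice (log2FC -0.20, SE 0.33). Basp1 had 265, 314, 299 and 298 CPM in A+/Pwt/wt and 313, 285, 359 and 345 CPM in A+/Pki/ki mice (log2FC 0.15, SE 0.11).

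Without mouse 335, the median log2FC of the 37 transcripts was -1.91, and none was called, with adjusted p of 0.0754 at the lowest (edgeR). Other cell type lists moved with the neuronal ones in the comparison of all 8 mice: the log2FC was negative for 15 of 15 astrocyte, 12 of 12 oligodendrocyte, 9 of 9 endothelial and 7 of 7 mural markers, and positive for 10 of 10 microglial markers (median 0.22) and 6 of 6 neutrophil markers (median 2.48), with none called. The summed astrocyte level was 3049.9 to 6460 CPM in A+/Pwt/wt and 1819 to 5299 CPM in A+/Pki/ki libraries, and the summed neutrophil level 40.5 to 116 and 31.1 to 1506 CPM. Their part was not tested.

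The transgenes were compared in females without the KI. None of the 37 transcripts was called between A+/Pwt/wt and A-/Pwt/wt CD11b+ libraries (edgeR), against 224 of 17355 genes (1.29%), and none was free of overlap, against 3.15% of all genes. The log2FC was negative for 26 and positive for 11, with a median of -0.12 against -0.03 for all genes. The batch tags in the labels are b2 for each A+ and b3 for each A- library, so batch and transgenes cannot be told apart.

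The 4 A+/Pwt/wt libraries lay within the range of the 7 A-/Pwt/wt libraries for most transcripts described. Shank1 had 199.5, 98.1, 253 and 209 CPM in A+/Pwt/wt mice and 61.3 CPM at the lowest, 106 at the median and 678 at the highest in A-/Pwt/wt mice (log2FC -0.06, SE 0.61). Gabrb2 had the highest log2FC, 0.48 (SE 0.75), with 1.21 to 2.92 CPM in A+/Pwt/wt and 0.424 CPM at the lowest, 0.574 at the median and 6.61 at the highest in A-/Pwt/wt mice. Each A+/Pwt/wt library was above 6 of the 7 A-/Pwt/wt libraries and below that of mouse 223. Grin2a had the lowest log2FC, -0.63 (SE 0.88), and its lowest A-/Pwt/wt library, at 0, was that of mouse 245.

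The sign of the median log2FC in this comparison depended on the method as well as on single libraries. With all libraries kept, the other scalings, filters and tools gave medians from -0.14 to 0.16, against -0.12 in the main fit. Among the genes named for this comparison, some also changed sign without mouse 236 (Olfm1), 331 (Gria1) or 367 (Olfm1 and Shank1). Without mouse 223, the median log2FC was 0.41 and Gabrb2 was called higher in A+/Pwt/wt mice (log2FC 1.64, adjusted p = 0.0486 in edgeR). Without mouse 245, the median was -0.26, none was called, and Grin2a had a log2FC of -0.86 (adjusted p = 0.722 in edgeR).

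Because the log2FC of the KI had opposite signs in males and in APP/PS1 females, the difference between both was tested in a joint fit of the 15 CD11b+ libraries. Those signs came from the same libraries, so the p-values of this difference are not independent of that choice. Sex, transgenes and batch tag differ together between the 2 sets and cannot be told apart. The difference, male minus female, was positive for 36 of the 37 transcripts, with a median of 2.81 log2 units, from -0.24 for Basp1 to 4.07 for Celf6. None was called in edgeR (adjusted p of 0.143 at the lowest), and none of 17619 genes was (0%). At an unadjusted p below 0.05 were 33 of the 37 transcripts and 4664 of all genes.

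For single genes, the difference was 3.04 (SE 0.92, adjusted p = 0.143 in edgeR) for Slc17a7, from 2.29 in males and -0.74 in females. It was 2.89 (SE 0.88) for Celf4, 2.55 (SE 0.98) for Olfm1, 2.60 (SE 0.99) for Gria1, 1.95 (SE 0.71) for Dlg4 and 0.65 (SE 0.41) for Vamp2. DESeq2's Wald test called 25 of the 37 transcripts higher, against 818 of 17619 genes (4.64%). Without mouse 335, edgeR called 35 of 37, all but Basp1 and Homer1, against 3474 of 17495 genes (19.9%), with a median difference of 3.81 log2 units. Whether the KI differences differ between males and APP/PS1 females thus depended on the test and on 1 library.

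The 91 other neuronal genes gave similar counts. In males, 69 of the 88 that were tested were called higher in A-/Pki/ki mice and none lower, with a median log2FC of 1.67. Among called genes of at least 5 CPM, large log2FC were those of the intermediate filament gene Ina (2.37, SE 0.38), with 2.72 ± 0.82 CPM (SD, n = 3) in A-/Pwt/wt and 14.2 ± 5.8 CPM (SD, n = 4) in A-/Pki/ki males, and the postsynaptic scaffold gene Dlgap3 (2.37, SE 0.26). In APP/PS1 females, 85 of the 89 tested had a negative log2FC for the KI and none was called. In cortex, 67 of 91 had a negative log2FC for the KI, at a median of -0.03, and none was called.

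Relative to cortex, 90 of the 91 were lower in CD11b+ libraries of A+/Pwt/wt mice and 1 was higher (edgeR, FDR 0.05). The largest falls were those of the neuropeptide gene Vip (log2FC -6.00, SE 0.35), the surface protein Lingo2 (-5.76, SE 0.27) and the transcription factor Neurod6 (-5.58, SE 0.25), which had 32.9 ± 8.0, 21.1 ± 3.5 and 53.2 ± 12.5 CPM in cortex (SD, n = 4). The gene that was higher, named after its value was seen, was Rims1, a scaffold protein of the presynaptic active zone (log2FC 0.48, SE 0.17, adjusted p = 0.0254 in edgeR), with 366 ± 34 CPM in cortex and 411 ± 95 CPM in CD11b+ libraries (SD, n = 4 each), which overlapped. These CPM were scaled within each set and differ by less than the log2FC, which came from scaling both sets together. Whether Rims1 would be called under the scaling of the CPM was not tested.

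**Figure D5:**
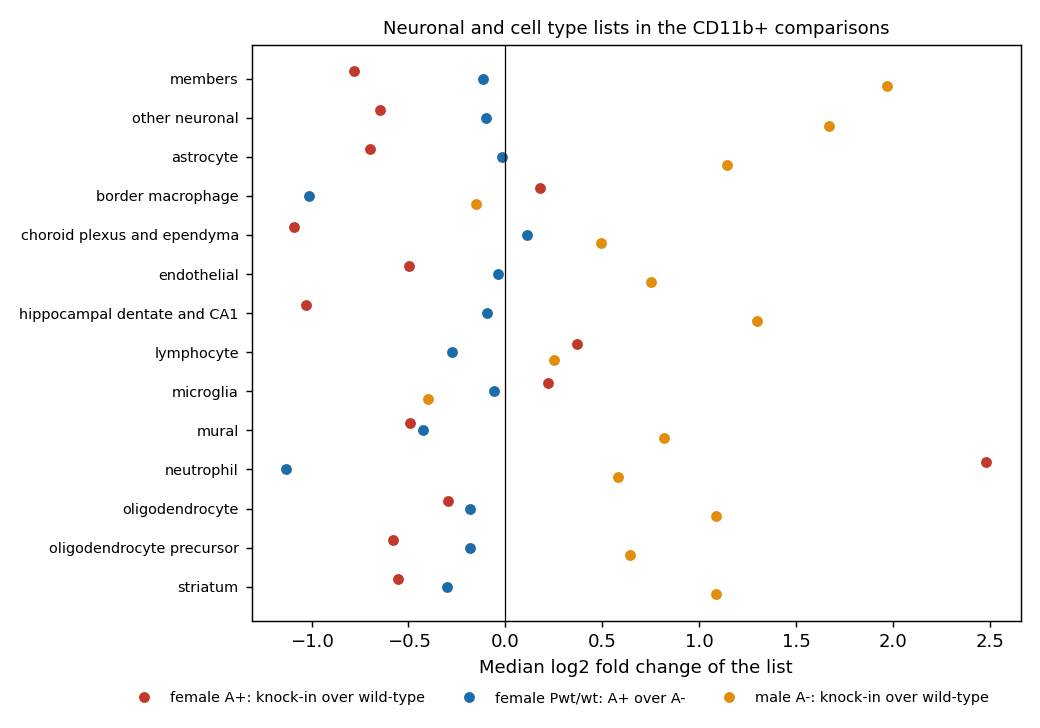
Median log2FC (x axis) of the 37 transcripts ("members"), the other neuronal genes and 12 cell type marker lists (y axis) in the 3 comparisons of CD11b+ libraries. Red points are the KI in A+ females, blue points A+ against A- in Pwt/wt females and orange points the KI in A- males. The 37 transcripts are at 1.97 in males, -0.78 for the KI in females and -0.12 for the transgenes.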

How the data were processed

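RNA was sequenced from 31 libraries of mouse cortex and CD11b+ cells. The authors trimmed the reads with Trimmomatic 0.39, aligned them to GRCm38 with STAR 2.7.9a and Gencode M25 and deposited unstranded featureCounts counts per gene in 3 tables, with variance-stabilized log2 values from DESeq2 beside them. For each comparison, the raw counts of its own libraries were fitted with edgeR 4.0.16 (R 4.3.3, TMM scaling). Genes entered when 3 or more of these libraries had 10 or more counts. Two-sided quasi-likelihood F tests were adjusted by Benjamini-Hochberg over every gene tested, at an FDR of 0.05, and SE values were derived from log2FC and F. Log2 CPM used a prior count of 2. Library totals limit the precision of low levels, and p-values cover the spread between these mice.

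DESeq2 1.42.0, limma 3.58.1 on the deposited log2 values, other scalings and filters, fits of all groups of a table, and leaving out each library were alternatives. The procedure was tested on simulated data. These had the same spread for every gene and lacked the shared differences between libraries of a group seen here, so the test does not cover them. The 37 genes, the other lists and the tests were chosen with earlier results of these data known. Named with values per comparison were the most abundant transcript of each role and those with the highest and lowest log2FC (3 each against cortex), and up to 3 of the other neuronal genes by log2FC at a mean of at least 5 CPM. A gene that this rule would name is not reported here. Others are named where the text says so or to complete a count. Exon lengths, overlaps and gene positions are from an earlier Gencode release of GRCm38 than the one used for the counts, and may differ slightly from it. No 2 libraries of a group agreed within sampling noise, so each counted as 1 replicate.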

Additional observations from a re-analysis of the deposited data

Results flagged for a closer look

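In 74 groups and transcripts of 4 to 10 libraries that were examined, 4 had a library farther from the others than the limit of Dixon's test at the 95% level, and chance flags about 1 in 20. In the CD11b+ libraries of A-/Pwt/wt females, Gabrb2 was at a log2 CPM of 2.74 in mouse 223, and between -0.95 and 0.19 in the other 6. In those of A-/Pki/ki males, Celf6 was at 0.21 in mouse 84 and between 1.19 and 1.28 in the other 3. In cortex of A+/Pwt/wt mice, Shank3 was at 7.80 in mouse 259 and between 8.11 and 8.14 in the other 3. In the same group, Shank1 was at 9.20 in mouse 257 and between 8.69 and 8.76 in the other 3.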

How the results depend on the processing

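No paired analysis was possible because the groups compared share no mouse numbers. Under the other scalings, filters, tools and left-out libraries, the cortex and APP/PS1 KI comparisons kept 0 of 37 calls and the comparison with cortex kept 37. In APP/PS1 CD11b+ cells, the median log2FC of the KI was -1.91 to -0.48 with 1 library left out, -1.91 being without mouse 335. For A+ against A-, leaving out 1 library gave 0 to 1 calls among the 37 and 0 to 2 among the other neuronal genes, and DESeq2 size factors gave 1 and its Wald test 2 among the latter. In males, 27 to 35 of the 37 and 45 to 76 of the other neuronal genes were called with 1 library left out, 27 being without mouse 102, and limma gave a median log2FC of 1.33. The share of all genes called in these male fits is not given here. Whether calls changed from fit to fit more among the neuronal genes than among all genes thus cannot be told from these counts. In the main fit, 32 of the 37 were called higher, against 11.1% of all genes. Calls lost without mouse 102 were Gad2, Slc32a1, Gria1, Grin2b and Nrxn3 (adjusted p 0.0529 to 0.0681 in edgeR), and Slc32a1 was also lost without mouse 94, 101 or 139. DESeq2's Wald test also called Grin2a (adjusted p = 0.0234) and Gabrb2 (adjusted p = 0.0251), and edgeR with no filter called these and Vamp2 (adjusted p = 0.0384). For the difference between the KI effects, leaving out 1 library gave 0 to 35 calls, a median of 2.49 to 3.81 and 0 to 81 calls among the other neuronal genes, and DESeq2's Wald test 25 and 39. For A+ against A-, limma turned the log2FC of Slc17a7 to 0.22, Shank1 to 0.39 and Olfm1 to 0.18. With 1 library left out, log2FC there changed sign for Vamp2 (-0.39 to 0.0072), Slc17a7 (-0.43 to 0.45), Shank1 (-0.25 to 0.71), Grin2a (-0.95 to 0.20), Olfm1 (-0.39 to 0.27) and Gria1 (-0.22 to 0.48), and for the KI in cortex for Slc17a7 (-0.073 to 0.081), Gria2 (-0.049 to 0.074), Snap25 (-0.045 to 0.041), Celf4 (-0.0043 to 0.081) and Nrgn (-0.0041 to 0.20). The cause was not tested. Groups of 3 or 4 mice and levels of a few CPM limit what these comparisons can detect.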
